A study of Mus musculus with 24 samples.

Results

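Cells hold their free cholesterol within narrow limits by sensing sterol in the endoplasmic reticulum and adjusting synthesis, uptake and efflux, and 9 genes of this control system were followed across mouse CD4 T cells at rest and after activation. They are the transcription factor genes Srebf1 and Srebf2, their escort Scap, the retention factors Insig1 and Insig2, the sterol carrier Stard4, the ubiquitin ligase Mylip and the efflux transporters Abca1 and Abcg1. The genes were taken by symbol from a table of 46981 mouse gene identifiers, through the Ensembl identifiers and their GENCODE names on GRCm38. All 9 were in the table, and all 9 passed the filter on low values in both cohorts.

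The study holds 24 RNA-seq libraries, made from CD4 T cells of mice and divided into 2 cohorts of 4 groups with 3 libraries each. In the first cohort the groups were activated CD4-Cre Acly fl/fl cells (Acly KO), activated WT cells, resting Acly KO cells and resting WT cells. CD4-Cre acts in developing T cells, so both CD4 and CD8 lineages carry the deletion, and Acly encodes ATP citrate lyase, which makes cytosolic acetyl-CoA. In the second cohort they were activated Pdha1 fl/fl CD4CreERT2 cells (Pdha1 KO), activated WT cells, resting Pdha1 KO cells and resting WT cells. CD4CreERT2 is a recombinase that tamoxifen switches on in CD4-expressing cells, and Pdha1 encodes the catalytic alpha subunit of pyruvate dehydrogenase, which makes mitochondrial acetyl-CoA. No induction schedule, age or strain of the mice is given in the sources used here. All cells were kept in RPMI with 15% serum and 2 mM glutamine, and activation was by CD3 and CD28 for 24 h. The labels do not say whether replicate libraries came from separate mice, so the spread behind each p-value is that between libraries and may be technical.

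The SREBP proteins encoded by Srebf1 and Srebf2 are made as membrane precursors of the endoplasmic reticulum. When sterol is low, SCAP carries them to the Golgi, where proteases release the part that enters the nucleus and switches on genes of sterol and fatty acid synthesis and uptake; when sterol is high, INSIG proteins hold SCAP back. Oxysterols, which form when cholesterol is plentiful, activate the LXR receptors, which raise Abca1, Abcg1 and Mylip. T cells that grow and divide after activation need membrane sterol, and SREBP activity is known to be required for that growth.

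Promoters from RefSeq on GRCm38.p6, each running 250 bases before to 50 bases after a transcription start, were at hand for 7 of the 9 genes, in 12 windows. Windows of 5 genes are shown because the genes divide on activation: Srebf2, Scap and Insig1 were called higher, and Mylip and Abca1 were not. Srebf1, also called higher, and Insig2, also not called higher, had windows that are not shown. For each of the 5 genes shown, the window nearest the annotated 5′ end is given, 5′ to 3′ on the strand of the gene. In it, CACGTG and CCAAT on either strand are in capitals (CCAAT on the other strand reads ATTGG).
Srebf2, chr15:82147019-82147318, plus strand: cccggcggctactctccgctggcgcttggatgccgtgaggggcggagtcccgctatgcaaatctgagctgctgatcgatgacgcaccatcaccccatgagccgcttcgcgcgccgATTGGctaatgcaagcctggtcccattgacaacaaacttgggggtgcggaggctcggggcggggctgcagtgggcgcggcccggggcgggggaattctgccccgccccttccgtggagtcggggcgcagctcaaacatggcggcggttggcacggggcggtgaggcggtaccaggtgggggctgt
Scap, chr9:110333038-110333337, plus strand: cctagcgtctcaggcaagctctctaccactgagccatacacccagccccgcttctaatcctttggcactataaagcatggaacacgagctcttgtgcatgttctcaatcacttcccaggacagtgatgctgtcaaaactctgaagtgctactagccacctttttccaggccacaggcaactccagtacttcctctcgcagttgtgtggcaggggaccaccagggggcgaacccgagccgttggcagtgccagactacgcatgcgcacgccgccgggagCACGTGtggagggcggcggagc
Insig1, chr5:28071162-28071461, plus strand: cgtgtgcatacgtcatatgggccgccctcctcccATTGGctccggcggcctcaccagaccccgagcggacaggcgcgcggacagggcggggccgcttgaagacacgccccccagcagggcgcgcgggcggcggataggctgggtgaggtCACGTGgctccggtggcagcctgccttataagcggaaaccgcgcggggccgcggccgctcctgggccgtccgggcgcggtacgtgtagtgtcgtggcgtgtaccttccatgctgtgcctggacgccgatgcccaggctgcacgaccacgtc
Mylip, chr13:45389492-45389791, plus strand: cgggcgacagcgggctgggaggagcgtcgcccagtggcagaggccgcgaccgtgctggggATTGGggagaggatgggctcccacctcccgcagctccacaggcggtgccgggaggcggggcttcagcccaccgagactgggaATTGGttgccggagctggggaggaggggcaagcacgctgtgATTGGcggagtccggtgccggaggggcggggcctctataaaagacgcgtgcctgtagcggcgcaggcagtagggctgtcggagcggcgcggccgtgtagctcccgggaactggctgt
Abca1, chr4:53159846-53160145, minus strand: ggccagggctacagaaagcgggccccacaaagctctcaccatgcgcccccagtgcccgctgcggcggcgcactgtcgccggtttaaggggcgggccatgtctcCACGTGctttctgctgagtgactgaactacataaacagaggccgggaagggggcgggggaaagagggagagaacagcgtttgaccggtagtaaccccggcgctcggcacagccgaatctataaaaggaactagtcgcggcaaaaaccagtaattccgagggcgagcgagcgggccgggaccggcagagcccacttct
CACGTG, a letter string that SREBP and other basic helix-loop-helix factors can bind, was in 4 of the 12 windows, those of Scap, Insig1 and Abca1, and in 7.15% of all 32851 RefSeq windows of this length. No window of Srebf1, Srebf2, Insig2 or Mylip held it. The windows of Scap overlap, so letters that they share, the CACGTG of Scap among them, are counted in each. In the windows shown, the first base of CACGTG lay 28 bases after the start in Scap, at position -101 from it in Insig1 and at -147 in Abca1. CCAAT, the letters that NF-Y binds, was in 6 of the 12 windows and in 37.4% of all windows, and GGGCGG, an Sp1 string that overlaps neither, was in 10 of the 12 and in 35.7% of all windows. The SREBP string TCACNCCAC was in none of the 12 windows and in 1.24% of all, and the LXR direct repeat known as DR4, searched in its consensus letters, was in none of the 12 and in 0.0152% of all. Each string was searched on both strands. A match of letters is not a bound site. TCACNCCAC and the exact DR4 letters are rare over all windows, so their absence from the 12 says little. Variants of the strings were not searched, so a site with other letters can be missed.

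The deposited values were RPM, read counts scaled so that each library totals 1000000, and whole counts recovered from them totalled 388902 to 1087675 per library, so that 3 counts correspond to between 2.03 and 6.84 RPM. Differences are log2 changes of RPM + 0.5 from limma, ± the fitted standard error, and a gene was called at a Benjamini-Hochberg adjusted p under 0.05 over all genes tested. Acly itself was at 11.3, 10.6 and 15.0 RPM in activated KO libraries, against 104, 111 and 109 RPM in activated WT libraries. Between resting KO and resting WT libraries of that cohort, Acly levels overlapped. Pdha1 levels overlapped between the genotypes in the second cohort. The gene was at 30.4, 27.4 and 19.996 RPM in activated libraries labelled Pdha1 KO and 84.7, 40.8 and 5.35 RPM in activated WT libraries. In activated cells the overlap came from WT replicate 3, at 5.35 RPM. WT replicates 1 and 2 lay above every activated library labelled Pdha1 KO. In that cohort the library labelled activated WT replicate 3 and the one labelled resting KO replicate 3 stood apart from their groups. Activated WT replicate 1 also differed from the rest of its group, with 388902 recovered counts. Its olfactory and vomeronasal receptor genes summed to 26265 RPM, against 71983 and 105016 RPM in replicates 2 and 3. Summed markers of activated T cells were 83.8 to 1185 RPM in activated WT libraries and 91.4 to 536 RPM in resting libraries labelled Pdha1 KO. All 7 CD4 T cell markers were present in every group, but their summed level differed between states. In the Acly cohort its median was 1167 RPM in activated and 389 RPM in resting KO libraries, and 1506 and 511 RPM in WT libraries. In the Pdha1 cohort it was 546 RPM in activated and 210 RPM in resting libraries labelled Pdha1 KO, and 811 and 203 RPM in WT libraries. Red cell and platelet markers summed to 405 to 19206 RPM in the Pdha1 cohort and 14.1 to 686 RPM in the Acly cohort.

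In the Acly cohort, activation raised both SREBP genes, Scap, Insig1 and the sterol carrier Stard4, while Insig2, Mylip, Abca1 and Abcg1 were not called higher. In Acly KO cells 6 of the 9 genes were called on activation, 5 higher (Srebf1, Srebf2, Scap, Insig1 and Stard4) and Abcg1 lower. Over all 31311 genes tested, 47.4% were called in KO cells, 20.7% higher and 26.7% lower. In WT cells 7 of 9 were called, the 5 above higher and Mylip and Abcg1 lower, against 45.2% of all genes, 21.4% higher and 23.8% lower. The median log2 change of the 9 genes was 0.93 in KO cells, beside -0.67 for all genes tested, and 0.57 in WT cells, beside -0.61 for all genes tested. In bulk RNA, fewer cells of a type and less RNA per cell cannot be told apart.

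**Figure D1:**
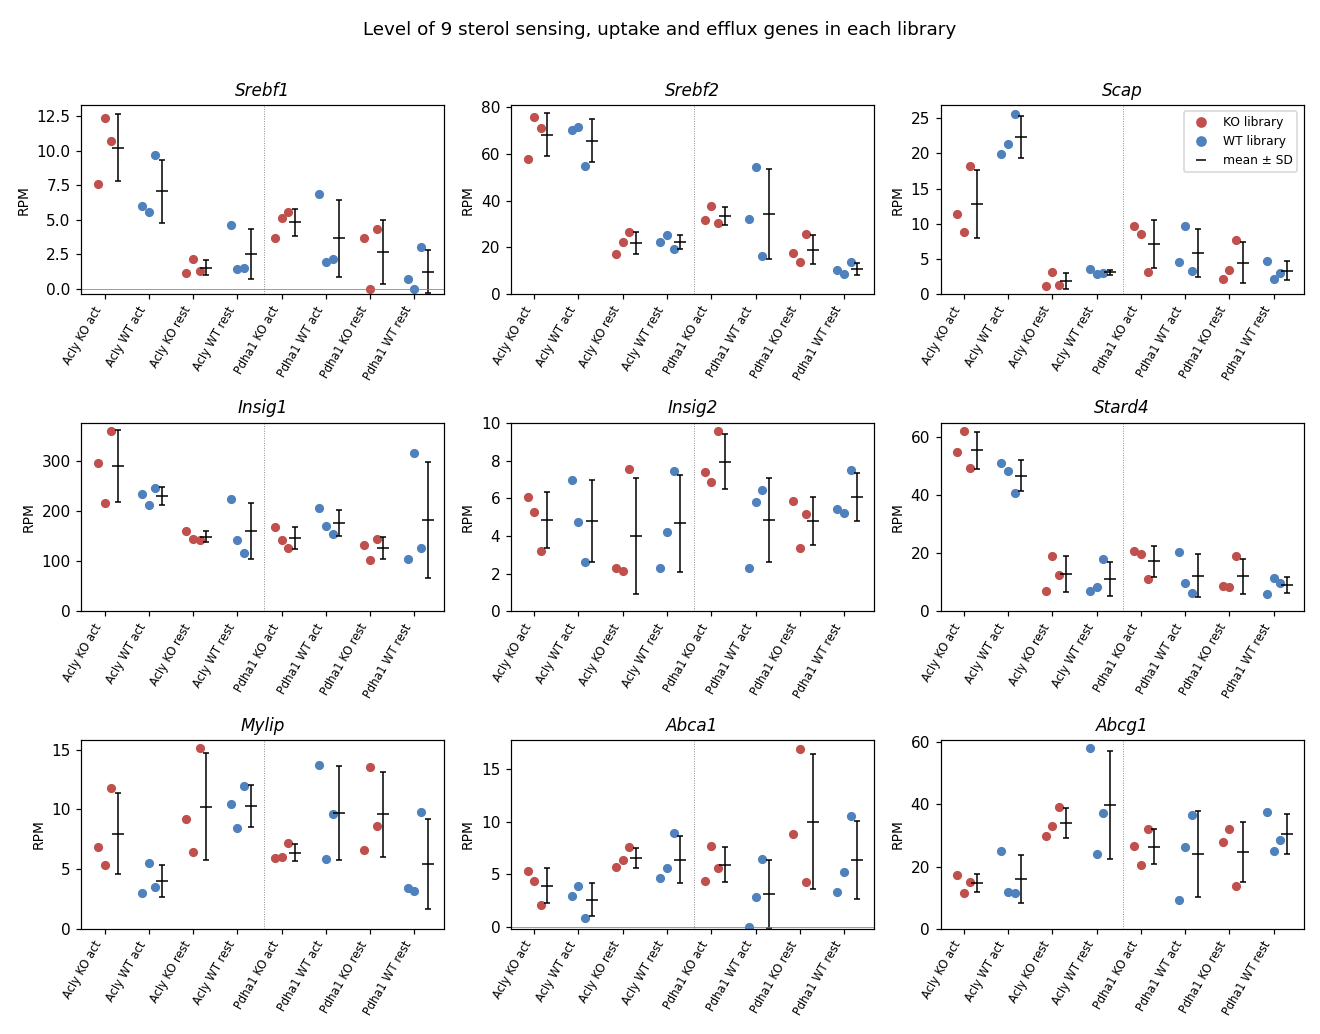
Level of each of the 9 genes in RPM (vertical axis, a scale of its own for each gene) in the 8 groups along the horizontal axis. Points are libraries (red KO, blue WT), and bars are the mean ± SD of 3 libraries; Srebf2, Scap and Stard4 are highest in the activated groups of the Acly cohort.

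Srebf2 (ENSMUSG00000022463, chr15:82147181-82205379), the SREBP form that chiefly drives cholesterol genes, was at 57.9, 75.7 and 71.1 RPM in activated Acly KO libraries and 70.4, 71.8 and 55.0 RPM in activated WT libraries. It was at 17.2, 22.4 and 26.5 RPM in resting Acly KO libraries and 22.1, 25.4 and 19.4 RPM in resting WT libraries. Every activated library of this cohort lay above every resting one, with no overlap. The log2 change on activation was 1.62 ± 0.29 in KO cells (limma adjusted p = 1.58e-05) and 1.54 ± 0.29 in WT cells (adjusted p = 3.65e-05). Srebf2 overlaps Gm49502, an unverified transcript on the same strand that averaged 6.20 RPM. Srebf1, Scap and Insig2 overlap genes on the opposite strand (Rai1, 5830462I19Rik and Gm37174, averaging 8.12, 10.3 and 3.22 RPM) and Abcg1 the rRNA gene Gm25447 (1.39 RPM). How reads in such overlaps were assigned is not given in the labels.

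Srebf1 (ENSMUSG00000020538, chr11:60199089-60222581), whose products lean towards fatty acid genes and which is itself an LXR target, was measured from few reads. It was at 7.56, 12.4 and 10.7 RPM in activated Acly KO libraries and 5.98, 5.53 and 9.69 RPM in activated WT libraries, against 1.14, 2.13 and 1.26 RPM in resting KO libraries and 4.64, 1.41 and 1.49 RPM in resting WT libraries. Activated and resting libraries did not overlap in either genotype. The change on activation was 2.42 ± 0.61 in KO cells (limma adjusted p = 0.00123) and 1.45 ± 0.61 in WT cells (adjusted p = 0.0484). The WT call was lost without any one of 8 of the 12 libraries, with adjusted p between 0.0568 and 0.157: each of the 3 activated KO and 3 activated WT libraries and resting WT replicates 2 and 3. It was also lost with a pseudocount of 0.1 (adjusted p = 0.0775), without the filter (adjusted p = 0.0763) and on the compared groups alone (adjusted p = 0.0566). Over the 24 libraries, 11 held 3 counts or fewer of Srebf1, so its resting level is known only as low.

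Scap (ENSMUSG00000032485, chr9:110333288-110384950), the sterol sensor that carries SREBP to the Golgi, rose in both genotypes. It was at 11.3, 8.82 and 18.2 RPM in activated Acly KO libraries and 19.98, 21.4 and 25.6 RPM in activated WT libraries. It was at 1.14, 3.19 and 1.26 RPM in resting KO libraries and 3.48, 2.82 and 2.98 RPM in resting WT libraries, all at or under 3 counts. The states did not overlap, and the change was 2.53 ± 0.51 in KO cells (limma adjusted p = 9.79e-05) and 2.66 ± 0.51 in WT cells (adjusted p = 4.84e-05).

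Of the INSIG genes, Insig1 was called on activation and Insig2 was not, and the difference between them was not tested. Insig1 (ENSMUSG00000045294, chr5:28071363-28078662), an SREBP target whose product retains SCAP, was at 294, 216 and 358 RPM in activated Acly KO libraries and 233, 211 and 246 RPM in activated WT libraries, against 160, 144 and 142 RPM in resting KO libraries and 223, 143 and 116 RPM in resting WT libraries. The KO states did not overlap, and 1 resting WT library, at 223 RPM, lay within the activated WT range. The change was 0.93 ± 0.23 in KO cells (limma adjusted p = 0.0012) and 0.57 ± 0.23 in WT cells (adjusted p = 0.0438). The WT call was lost without any one of 9 of the 12 libraries (adjusted p 0.0502 to 0.187): activated KO replicate 1, the 3 activated WT, the 3 resting KO, and resting WT replicates 2 and 3. It was also lost with a pseudocount of 0.1 (adjusted p = 0.0519), without trend and robust options (adjusted p = 0.202) and on the compared groups alone (adjusted p = 0.0795). Insig2 (ENSMUSG00000003721, chr1:121304353-121332589), a retention factor that SREBP does not induce, stayed between 2.13 and 9.58 RPM in all 24 libraries. Its change on activation was 0.42 ± 0.62 in KO cells (limma adjusted p = 0.588), with a 95% interval of -0.84 to 1.68, and 0.072 ± 0.62 in WT cells (adjusted p = 0.935), with an interval of -1.19 to 1.33. Both intervals include a 2-fold rise. Under TMM-style scaling the changes were 0.91 in KO cells and 0.54 in WT cells, and neither was called.

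Stard4 (ENSMUSG00000024378, chr18:33199355-33213862), a soluble carrier that moves cholesterol between membranes, was at 54.8, 62.2 and 49.4 RPM in activated Acly KO libraries and 51.1, 48.5 and 40.7 RPM in activated WT libraries. It was at 6.86, 19.2 and 12.6 RPM in resting KO libraries and 6.96, 8.46 and 17.9 RPM in resting WT libraries. No resting library reached the lowest activated one. The change was 2.17 ± 0.36 in KO cells (limma adjusted p = 4.99e-06) and 2.14 ± 0.36 in WT cells (adjusted p = 6.56e-06), the smallest adjusted p of the 9 genes in each genotype.

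Mylip (ENSMUSG00000038175, chr13:45389742-45412022), also called IDOL, marks lipoprotein receptors for degradation and so limits uptake. It was at 6.80, 5.29 and 11.8 RPM in activated Acly KO libraries and 2.99, 5.53 and 3.52 RPM in activated WT libraries, against 9.14, 6.39 and 15.1 RPM in resting KO libraries and 10.4, 8.46 and 11.9 RPM in resting WT libraries. The WT states did not overlap, while the KO states did. The change was -0.33 ± 0.50 in KO cells (limma adjusted p = 0.585) and -1.28 ± 0.50 in WT cells (adjusted p = 0.0327), and the difference between these changes, KO minus WT, 0.95 ± 0.70, was not called (adjusted p = 1.00). The WT call was lost without activated WT replicate 1 or 3 or resting WT replicate 1 or 3, with adjusted p between 0.0634 and 0.104.

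Abcg1 (ENSMUSG00000024030, chr17:31057675-31117988), which passes cholesterol to lipoprotein particles, was at 17.4, 11.5 and 15.0 RPM in activated Acly KO libraries and 24.99, 11.9 and 11.5 RPM in activated WT libraries. It was at 29.8, 33.1 and 39.2 RPM in resting KO libraries and 58.3, 24.0 and 37.3 RPM in resting WT libraries. The KO states did not overlap, and the WT states crossed in 1 of 9 pairs of libraries. The change was -1.20 ± 0.36 in KO cells (limma adjusted p = 0.006) and -1.29 ± 0.36 in WT cells (adjusted p = 0.00356). Abca1 (ENSMUSG00000015243, chr4:53030787-53159895), which loads lipid onto apolipoproteins, was at 5.29, 4.41 and 2.14 RPM in activated KO libraries and 2.99, 3.95 and 0.880 RPM in activated WT libraries, against 5.71, 6.39 and 7.57 RPM in resting KO libraries and 4.64, 5.64 and 8.94 RPM in resting WT libraries. Within each genotype the activated libraries of Abca1 all lay below the resting ones. Its changes of -0.73 ± 0.60 in KO cells (limma adjusted p = 0.314) and -1.27 ± 0.60 in WT cells (adjusted p = 0.0823) were not called. In KO cells 5 of the 9 genes were higher without overlap, as were 22.6% of all genes, and 2 were lower, as were 33.2%. In WT cells 4 were higher without overlap, against 23.1% of all genes, and 2 were lower, against 28.8%.

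The calls of Mylip and Abcg1 depended on the scaling, and the calls of the 5 rises did not. Under TMM-style scaling, which moved the median change of all genes to -0.36 in KO cells and -0.26 in WT cells, the 5 rises stayed called in both genotypes. The fitted rise of Insig1 was then 1.48 ± 0.27 in KO cells and 1.09 ± 0.27 in WT cells, more than 1.5 times its value on RPM as deposited. Abcg1 was then at -0.66 in KO cells (limma adjusted p = 0.128) and -0.78 in WT cells (adjusted p = 0.0753), and Mylip at 0.19 in KO cells and -0.80 in WT cells (adjusted p = 0.170). The same scaling gave 7736 genes higher and 4923 lower in KO cells, where RPM as deposited gave 6483 higher and 8363 lower. In WT cells it gave 7912 higher and 4216 lower, where RPM as deposited gave 6700 higher and 7447 lower. With edgeR on the recovered counts, Abcg1 lost its call in KO cells (-0.65, adjusted p = 0.0790) and kept it in WT cells (-0.84, adjusted p = 0.0178), and Mylip lost its call in WT cells (-0.78, adjusted p = 0.224). Without the filter Mylip in WT cells had limma adjusted p = 0.0516.

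**Figure D2:**
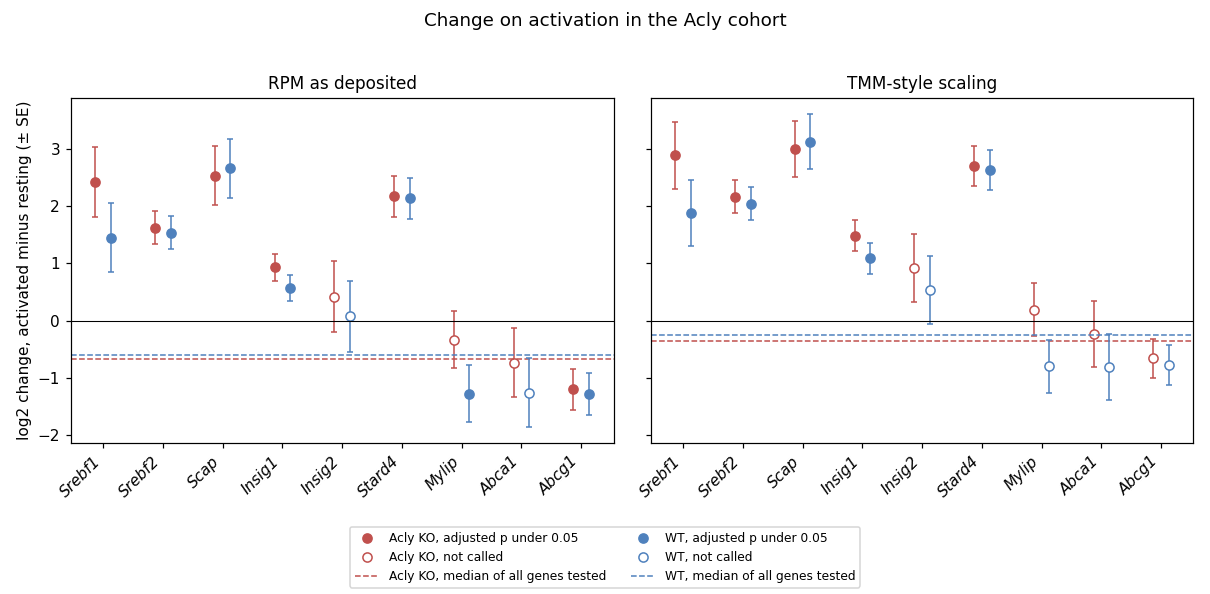
Log2 change on activation (activated minus resting, ± SE, n = 3 libraries per group) of the 9 genes in Acly KO (red) and WT (blue) cells, with RPM as deposited on the left and TMM-style scaling on the right; filled points have an adjusted p under 0.05 and dashed lines are the median of all genes tested. The 5 rises are filled in both panels, while the falls of Mylip and Abcg1 are open on the right, where Mylip in KO cells lies just above 0.

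Reads of genes that T cells are not known to express moved with activation too. The 1450 protein-coding olfactory and vomeronasal receptor genes summed to 31346 to 40831 RPM in activated Acly KO libraries and 30009 to 40163 RPM in activated WT libraries, against 105711 to 109181 RPM in resting KO libraries and 95039 to 105748 RPM in resting WT libraries. The median change of the 1220 of these that were tested was -1.63 in KO cells (quartiles -1.90 and -1.14) and -1.54 in WT cells (quartiles -1.87 and -1.12). In KO cells the change of Abcg1, -1.20, lay between those quartiles, and the changes of Mylip, -0.33, and Abca1, -0.73, lay above them. In WT cells the changes of Mylip, Abca1 and Abcg1, -1.28, -1.27 and -1.29, all lay between the quartiles. With the summed level of these receptors as a covariate, none of the 9 genes was called on activation in either genotype, but the covariate does not overlap between the states, so that it and activation cannot be told apart. The 8 macrophage and myeloid markers summed to 20.3 to 52.5 RPM in activated KO libraries and 29.2 to 45.9 RPM in activated WT libraries, against 70.4 to 104 RPM in resting KO libraries and 80.5 to 88.0 RPM in resting WT libraries. Of them, Cd14 was at 0 in every library of activated KO, resting KO and resting WT cells, and Lyz2 in every resting KO library. Macrophages express Abca1 and Abcg1, and the part of these markers in the falls was not tested.

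Between activated Acly KO and activated WT cells, none of the 9 genes was called by limma, none had an unadjusted p under 0.05, and edgeR on the recovered counts called none. Over all genes limma called 0.00639%, which is 2 of 31311, both lower and one of them Acly. With the replicate number as a block 5 genes were called, and by edgeR 16. The fitted changes were 0.51 ± 0.61 for Srebf1, 0.055 ± 0.29 for Srebf2, -0.83 ± 0.51 for Scap, 0.30 ± 0.23 for Insig1 and 0.064 ± 0.62 for Insig2 (limma adjusted p = 1 for each). They were 0.24 ± 0.36 for Stard4, 0.87 ± 0.50 for Mylip, 0.60 ± 0.60 for Abca1 and -0.061 ± 0.36 for Abcg1 (adjusted p = 1 for each). Under TMM-style scaling the Abcg1 value was 0.036. The median of the 9 was 0.24, beside -0.049 for all genes.

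Scap was the member whose libraries did not overlap by genotype: its activated KO libraries, 8.82 to 18.2 RPM, lay below its activated WT libraries, 19.98 to 25.6 RPM, as did 7.38% of all genes tested. The 95% interval of its change ran from -1.87 to 0.20. Mylip ran from -0.13 to 1.87 and was higher in KO in 8 of 9 pairs of libraries. For the deeper read genes the intervals were narrower: Srebf2 from -0.53 to 0.64, Insig1 from -0.17 to 0.78, Stard4 from -0.49 to 0.98 and Abcg1 from -0.79 to 0.67. On RPM as deposited a 2-fold difference lay outside the interval for these 4 genes, and inside it for Srebf1, Scap (lower), Insig2, Mylip and Abca1. For Stard4 this was narrow, and its change under TMM-style scaling was larger, 0.34 ± 0.35.

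**Figure D3:**
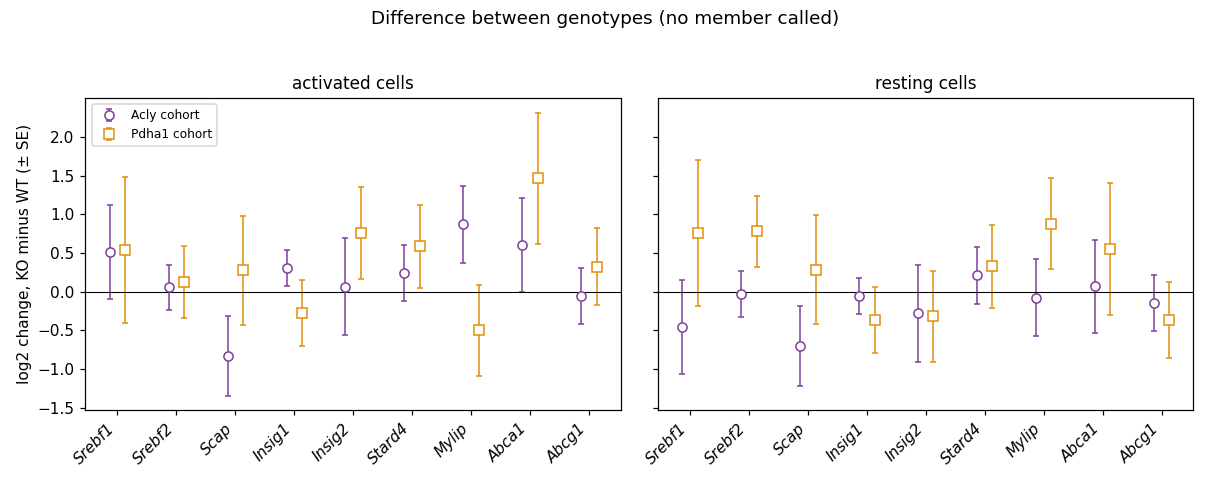
Log2 change KO minus WT (± SE, n = 3 libraries per group) of the 9 genes in each cohort and state. All bars come from limma on log2(RPM + 0.5), and none of the changes passed an adjusted p under 0.05.

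Resting Acly KO and resting WT cells also gave none of 9 called by limma or edgeR and none with an unadjusted p under 0.05, against 0% of all genes called and 1745 genes (5.57%) at that unadjusted p. The smallest p was that of Scap, at -0.70 ± 0.51 (limma adjusted p = 0.998), where all 6 resting libraries held 3 counts or fewer. Acly itself was not called between resting cells, with overlapping levels and a change of -1.02 ± 0.44 (limma adjusted p = 0.739). Loss of Acly RNA was thus not clear in the resting libraries, which limits what their comparison can show about the knockout. The difference between the KO and WT responses to activation was called for none of 9 (0% of all genes; 1313 genes, 4.19%, at an unadjusted p under 0.05).

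The wider sterol pathway was read from 4 lists of genes, whose counts on activation stand beside 20.7% of all genes higher and 26.7% lower in KO cells, and 21.4% higher and 23.8% lower in WT cells. Of 19 enzymes of cholesterol synthesis, 16 rose on activation in Acly KO cells and 15 in WT cells, with none lower, and the median change was 2.96 in KO cells and 2.61 in WT cells. Cyp51, the lanosterol demethylase, changed by 5.13 ± 0.34 in KO cells and 4.13 ± 0.34 in WT cells, and Acat2, which makes acetoacetyl-CoA, by 4.53 ± 0.31 in KO cells and 3.54 ± 0.31 in WT cells. One enzyme was at 0 in a whole group in each comparison, and with it at its bound the medians were 2.87 in KO cells and 2.53 in WT cells. Between activated KO and WT cells 17 of the 19 had a positive change, as did 45.4% of all genes tested. The median of the 19 was 0.66, beside -0.049 for all genes, and limma called none of the 19. One was called by edgeR, 1 by limma without the filter and 2 by limma on the compared groups alone. Hmgcs1, which makes HMG-CoA, was at 174 ± 47.0 RPM in activated KO and 59.97 ± 14.1 RPM in activated WT cells (SD, n = 3 each), a change of 1.53 ± 0.34 with limma adjusted p = 0.450, and Lss, the lanosterol synthase, changed by 0.99 ± 0.34 (adjusted p = 1).

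Of 12 SREBP proteases and proteins of sterol-regulated degradation in the endoplasmic reticulum, 4 rose and 1 fell on activation in KO cells, and 5 rose and 1 fell in WT cells. They included Vcp, the ATPase that extracts proteins for degradation, at 4.09 ± 0.25 in KO cells and 3.27 ± 0.25 in WT cells, and Ubxn1, a cofactor of that ATPase, at 2.01 ± 0.33 in KO cells and 2.06 ± 0.33 in WT cells. Of 11 LXR receptors, partners and targets other than the members, 10 were tested, and 5 rose and 1 fell in KO cells, and 6 rose and 1 fell in WT cells. Nr1h2, which encodes LXR beta, changed by 2.47 ± 0.33 in WT cells, and the desaturase gene Scd2 by 3.84 ± 0.39 in KO cells and 2.87 ± 0.39 in WT cells. Smpdl3a, a phosphodiesterase gene that LXR induces, fell by 3.19 on the log2 scale in KO cells. The list median was 1.24 in KO cells and 1.77 in WT cells, where 2 genes were at 0 in a whole group and the median with those at their bound was 0.91.

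Of 17 genes of sterol uptake, transport inside cells and esterification, 4 rose and 6 fell on activation in KO cells and 4 rose and 3 fell in WT cells (median -0.30 in KO cells and -0.061 in WT cells). Gramd1b, which carries sterol from the plasma membrane to the endoplasmic reticulum, changed by 4.16 ± 0.36 in KO cells and 4.52 ± 0.36 in WT cells. Npc2, the carrier of cholesterol in the lysosome, changed by 1.57 ± 0.26 in KO cells and 1.40 ± 0.26 in WT cells. Lrp8, a lipoprotein receptor, was at 61.8 ± 15.6 RPM in activated KO cells and 165 ± 15.8 RPM in resting KO cells (SD, n = 3 each), a change of -1.44 ± 0.25 (limma adjusted p = 1.27e-05). Between activated KO and WT cells none of these 3 lists had a called gene, and their medians were -0.28 for the proteases and degradation, -0.036 for the LXR list and -0.19 for transport.

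In the Pdha1 cohort none of the 9 genes was called with all libraries. Srebf2 was at 31.9, 37.8 and 30.4 RPM in activated libraries labelled Pdha1 KO and 31.9, 54.4 and 16.1 RPM in activated WT libraries, against 17.6, 13.5 and 25.9 RPM in resting libraries labelled Pdha1 KO and 10.2, 8.37 and 13.5 RPM in resting WT libraries. Each activated group lay above the resting group of its genotype. Such a gap upwards was found for 2 of the 9 genes in cells labelled Pdha1 KO, Srebf2 and Insig2, and for 3.47% of all genes, and for Srebf2 alone of the 9 in WT cells and 5.87% of all genes. On activation none of 9 genes was called in either genotype, nor was any gene of the table (0%), while an unadjusted p under 0.05 was reached by none of the 9 in cells labelled Pdha1 KO and by 1, Srebf2, in WT cells. EdgeR also called none of the 9 in either. Over all genes that unadjusted p was reached by 873 (2.88%) in cells labelled Pdha1 KO and 4315 (14.2%) in WT cells.

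The library labelled activated WT replicate 3 decided the Srebf2 call in WT cells. Its change was 1.49 ± 0.46 with all libraries (limma adjusted p = 0.348) and 1.94 ± 0.44 without that library (adjusted p = 0.0152). Without any other single library it ran from 1.08 to 1.67 and was not called. Without both libraries that stood apart, Srebf2 was at 1.94 ± 0.40 (limma adjusted p = 0.00201) and Abca1 at -2.26 ± 0.78 (adjusted p = 0.0389). Both were called, as were 7825 of the 29032 genes tested in that fit, 4315 higher and 3510 lower. Activated WT replicate 1 was kept in that fit. In cells labelled Pdha1 KO the change of Srebf2 was 0.84 ± 0.46.

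Stard4 and Scap, which rose in both genotypes of the Acly cohort, overlapped between states here. Stard4 was at 20.7, 19.7 and 11.2 RPM in activated libraries labelled Pdha1 KO and 20.5, 9.67 and 6.43 RPM in activated WT libraries. It was at 8.80, 8.44 and 18.9 RPM in resting libraries labelled Pdha1 KO and 6.10, 11.5 and 9.77 RPM in resting WT libraries. In cells labelled Pdha1 KO its overlap came from resting replicate 3, at 18.9 RPM, a library that stood apart. In WT cells its states overlapped also without activated replicate 3, which stood apart at 6.43 RPM. Scap was between 3.19 and 9.67 RPM in the 6 activated libraries and between 2.09 and 7.74 RPM in the 6 resting ones. Insig1 was at 126 to 168 RPM in activated libraries labelled Pdha1 KO and 155 to 205 RPM in activated WT libraries, and a single resting WT library stood at 314 RPM beside 104 and 126 RPM.

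Between genotypes of the Pdha1 cohort, none of 9 genes was called by limma or by edgeR, activated or resting, none had an unadjusted p under 0.05, and 0% of all genes were called. In activated cells 856 genes (2.82%) had an unadjusted p under 0.05, and in resting cells 636 (2.1%). The smallest p in activated cells was that of Abca1, which was at 4.43, 7.69 and 5.59 RPM in libraries labelled Pdha1 KO and 0, 2.90 and 6.43 RPM in WT libraries (1.46 ± 0.85, limma adjusted p = 1). Insig2 was at 6.84 to 9.58 RPM in activated libraries labelled Pdha1 KO and 2.28 to 6.43 RPM in activated WT libraries, with no overlap, as for 3.99% of all genes. In resting cells the smallest p was that of Srebf2, at 0.78 ± 0.46. Neither the difference of the 2 responses to activation (Mylip, -1.38 ± 0.83) nor that between the Acly and Pdha1 effects in activated cells (Mylip, 1.37 ± 0.78) was called for any of the 9, with 0% of all genes called in each.

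Ordered by their means over the 8 groups, most genes gave no clear steps. For Srebf2, 2 pairs of neighbouring groups did not overlap: activated WT cells of the Acly cohort lay above activated WT cells of the Pdha1 cohort, and activated cells labelled Pdha1 KO above resting WT cells of the Acly cohort. The same held for 1 pair for Scap (activated Acly KO below activated WT cells) and 1 pair for Stard4 (activated WT cells of the Acly cohort above activated cells labelled Pdha1 KO). For Srebf1, Insig1, Insig2, Mylip, Abca1 and Abcg1 every pair of neighbours overlapped. Cohorts were set side by side on the same RPM table, but the cohort cannot be told apart from its own handling.

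Over the 24 libraries the genes most like Srebf2 by Pearson correlation of log2(RPM + 0.5), among 8550 compared, were Dnajc9 (0.955), Eif4ebp2 (0.954) and Icos (0.951). For Stard4 they were Anapc5 (0.918), Phf6 (0.914) and Cops4 (0.910), for Insig1 Ankrd13a (0.810), Btbd1 (0.781) and Rgs2 (0.768), and for Abcg1 Rnf214 (0.906), Daam2 (0.899) and Tbx4 (0.896). Among the members, Srebf2 and Stard4 correlated at 0.82, Srebf2 and Scap at 0.79, Srebf2 and Insig2 at 0.0066, Stard4 and Abcg1 at -0.71, and Abca1 and Abcg1 at 0.62. These are descriptions: the 24 points share activation state, cohort and the level of the receptor background. The other members were too low in mean level for the list of similar genes.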

How the data were processed

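RNA was sequenced from 24 mouse CD4 T cell libraries, by the labels' protocols with a stranded total RNA kit and 75 bp single-end reads. The authors deposited RPM values, each library summing to 1000000. The submitters' processing notes name GRCm38 and mm10; the aligner and the counter were not given in the sources used here. Whole counts were recovered from the deposited RPM after inverting a collision correction over 4096 identifiers (tolerance 0.01).

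The main test was limma 3.58.1 (R 4.3.3) with trend and robust options on log2(RPM + 0.5), after a filter that kept genes reaching 1 RPM in 3 or more libraries, with Benjamini-Hochberg adjustment over all genes. Each cohort was fitted by itself. Pseudocounts of 0.1 and 1, no filter, TMM-style scaling, a background covariate, a replicate block, fits without trend and robust options or with the compared groups alone, edgeR 4.0.16 on recovered counts, and leaving out libraries were alternatives. The fits were run on simulated data, with changes planted only in genes of higher mean level and a single fixed dispersion. That setting does not cover members of low level or libraries that stood apart from their groups. All 9 members were named. From each pathway list up to 3 genes with the smallest p in a comparison were eligible to be named. The members and lists were chosen with earlier results of these data known.

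Replicate numbers were checked as pairs. The labels give no source for a pairing. Same-numbered libraries deviated together at correlations of 0.114 to 0.254 in activated Acly KO and WT cells, where other numbers reached 0.114. Between WT states of that cohort they were at 0.109 to 0.269, where other numbers reached 0.112. In activated Pdha1-cohort cells they were at 0.183 to 0.601, where other numbers reached 0.178. Not every pair of groups was alike: same-numbered activated WT and resting libraries labelled Pdha1 KO were at -0.851 to -0.355. The replicate block moved the number of genes called in activated Acly KO against WT to 5.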

Additional observations from a re-analysis of the deposited data

How the results depend on the processing

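Between activated Acly KO and WT cells, where 2 genes were called, the count was 1 with a pseudocount of 0.1, 8 without the filter, 1 with TMM-style scaling, 0 without trend and robust options, 16 with edgeR, 39 with the compared groups alone and 1 to 4 without single libraries. The synthesis enzymes called there were 1 without the filter, 1 with edgeR and 2 with the compared groups alone, and Abcg1 turned to 0.036 with TMM-style scaling. Between resting cells, from 0, the count was 4 with a pseudocount of 0.1, 17 without the filter, 86 without trend and robust options, 1 with edgeR, 1 with the compared groups alone and 0 to 119 without single libraries. With the replicate block the counts were 5 in activated cells, 2 in resting cells, 1 for the Acly interaction and 6 for the Acly minus Pdha1 effect, and it changed no call of the 9 genes. With the background covariate, which does not overlap between states, the calls on activation were 1 gene in KO cells and 11 in WT cells, and 0 of the 9 genes and 0 of each pathway list; Insig2 was then at -2.28 and Mylip at 0.050 in WT cells. The transport list in KO cells had 6 calls with TMM-style scaling and the protease and degradation list 8 with edgeR. The Acly interaction had 4 calls without the filter and 6 with edgeR. In the Pdha1 cohort, the counts without both libraries that stood apart were 2 between activated groups, 1 between resting groups, 2075 on activation of cells labelled Pdha1 KO, 7825 (2 of the 9 genes) on activation of WT cells and 2 for the interaction; without the filter they were 2 between activated groups and 2 for the interaction.

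Without single libraries, the changes between activated Acly KO and WT cells ran from -0.068 to 0.17 for Srebf2, -0.27 to 0.36 for Insig2 and -0.25 to 0.30 for Abcg1. On activation of Acly-cohort WT cells 4 to 6 of the 9 genes were called and Insig2 ran from -0.30 to 0.45. The counts ran from 0 to 1 for each interaction and for the Acly minus Pdha1 effect, and from 0 to 4338 (0 to 1 of the 9 genes) on activation of Pdha1-cohort WT cells. Depth limits Srebf1 and Scap, which held 3 counts or fewer in 11 of 24 libraries, Insig2 in 8 and Abca1 in 5; intervals cover the spread between libraries and a zero allows up to 3 counts.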
